A study of Mus musculus with 12 samples.

Results

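The cholesterol synthesis and SREBP pathway was followed as a list of 29 genes in the duodenum of mice given an oral pentapeptide. The list holds 8 genes of the mevalonate steps, 12 genes from squalene to cholesterol, 5 genes of the SREBP machinery and 4 genes of sterol transport. Members were found by matching the accession of each array probe to a RefSeq gene symbol, and the brightest probe stood for a gene. Of the 29 genes, 28 had a matched probe, out of 26107 features tested, and Acat2 had none. All 28 were well above background on all 12 arrays, so none was kept because of a high level in 1 group.

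RNA of duodenum from male mice was hybridised to 12 one-colour Agilent arrays, 3 for each of 4 groups. Wild-type mice and Akp3-/- knockout mice each received either vehicle alone or vehicle with IIAEK. IIAEK is a peptide that the labels call cholesterol-lowering, and Akp3 encodes intestinal alkaline phosphatase of the duodenal brush border. All mice were 7 weeks old and received carboxymethylcellulose sodium at 5 g/L by mouth, which carried the peptide at 600 mg/kg/day in the treated groups. Dosing lasted 14 days per the titles, although the source labels of the treated samples name 14 to 16 weeks, and tissue was taken after an 8 h fast. The strain and the way the knockout was made are not given in the sources used here. The design asks for the effect of the peptide on the duodenum and whether it differs without Akp3. Nothing in the labels says that the 3 samples of a group come from separate mice, so the p-values measure the spread between these samples, which may be technical. The number of arrays limits the precision.

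Cells make cholesterol from acetyl units through mevalonate, isoprenoid pyrophosphates, squalene and lanosterol. The transcription factor SREBP-2, made from Srebf2, switches most of these enzyme genes on together when sterol in the endoplasmic reticulum is low. Scap carries the precursor to the Golgi for cleavage, and the Insig proteins hold Scap back when sterol is plentiful. In the small intestine the same genes run beside the uptake of cholesterol from the gut lumen.

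Promoter sequence is shown for 7 members whose levels are described below, because members that moved together and members that did not can then be set side by side. Each run gives the 150 bases before an annotated start, 5′ to 3′ on the gene's strand, from RefSeq on GRCm38.p6, whereas the array headers name an older build. Capitals mark CCAAT or its complement ATTGG, the box bound by NF-Y, and CACNCCAC on either strand, a core of the sterol regulatory element bound by SREBP. The first 4 belong to genes whose levels followed Sqle across the 12 arrays, and the last 3 to genes whose levels did not. Hmgcs1 did not pass without the 2 arrays farthest from the median of Sqle. Sqle itself, Fdft1 and Fdps, which followed it most closely, and Stard4 and Npc1 have no promoter entry and cannot be shown. Insig2 has 3 annotated starts and 1 is shown.
Hmgcs1 (chromosome 13, plus strand): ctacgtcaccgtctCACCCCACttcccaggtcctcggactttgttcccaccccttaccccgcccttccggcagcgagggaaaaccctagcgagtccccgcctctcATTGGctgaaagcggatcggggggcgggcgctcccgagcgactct
Mvd (chromosome 8, minus strand): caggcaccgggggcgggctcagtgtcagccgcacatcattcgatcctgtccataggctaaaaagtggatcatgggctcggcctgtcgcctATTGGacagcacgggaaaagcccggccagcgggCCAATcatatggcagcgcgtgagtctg
Lss (chromosome 10, plus strand): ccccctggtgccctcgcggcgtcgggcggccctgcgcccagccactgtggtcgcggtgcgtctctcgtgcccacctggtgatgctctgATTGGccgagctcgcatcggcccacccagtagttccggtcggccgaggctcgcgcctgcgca
Srebf2 (chromosome 15, plus strand): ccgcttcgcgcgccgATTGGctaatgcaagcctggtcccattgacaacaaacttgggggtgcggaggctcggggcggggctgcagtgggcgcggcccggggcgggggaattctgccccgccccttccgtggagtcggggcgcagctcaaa
Idi1 (chromosome 13, plus strand): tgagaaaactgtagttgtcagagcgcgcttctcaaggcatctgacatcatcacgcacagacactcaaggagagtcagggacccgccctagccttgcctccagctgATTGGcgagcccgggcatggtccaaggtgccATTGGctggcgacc
Insig1 (chromosome 5, plus strand): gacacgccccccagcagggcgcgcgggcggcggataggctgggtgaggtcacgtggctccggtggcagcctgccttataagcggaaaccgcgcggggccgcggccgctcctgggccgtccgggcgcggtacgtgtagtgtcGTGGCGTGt
Insig2 (chromosome 1, minus strand): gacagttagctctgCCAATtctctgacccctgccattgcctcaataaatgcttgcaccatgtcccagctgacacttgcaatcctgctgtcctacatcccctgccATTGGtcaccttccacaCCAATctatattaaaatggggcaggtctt

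Over the 250 bases before the start, CCAAT on either strand was present in 22 of the 24 members with a promoter entry (91.7%), against 37.5% of 27025 genes with an entry. Acat2 and Scap were the members without it. The sterol element core CACNCCAC was present in 3 of the 24 members (12.5%), Acat2, Hmgcs1 and Insig1, against 6.05% of all genes. In Hmgcs1 the core starts 136 bases before the start of the gene, and in Insig1 it starts 9 bases before. Mvd and Idi1 each hold 2 CCAAT boxes in the stretch shown, Insig2 holds 3, and the box of Insig1 lies outside it at 216 bases. These matches describe letters in a window and do not show that a factor was bound.

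The series as a whole showed little that passed the tests. Processed intensity had a 75th percentile of 195 to 466 on the arrays, 56.0% to 64.0% of probes were well above background, and no spot was saturated. Akp3 itself lay between 1.05 and 2.72 on the wild-type arrays and between -4.90 and -3.80 on the knockout arrays. Duodenal identity genes averaged 2.89 to 3.32 and enterocyte genes 6.82 to 7.62 over the arrays, and markers of other tissues varied as well. A list of stomach and Brunner gland mucous genes, 9 of 10 measured, averaged 4.88 to 6.26 on 6 arrays and -1.16 to 0.38 on the other 6. The 6 arrays with the high level are wild-type vehicle 1, 2 and 3, wild-type IIAEK 3, knockout vehicle 1 and knockout IIAEK 3. A pancreas list, with all 15 genes measured, averaged 2.35 on wild-type vehicle array 1 and 6.94 to 9.01 elsewhere. The arrays were also divided over 2 slides, which the headers show, with 7 arrays on slide 1 and 5 on slide 2. Slide 1 holds 2 arrays of each group but 1 of knockout vehicle, and slide 2 holds 1 array of each group but 2 of knockout vehicle. In whole tissue, fewer cells of a type and less RNA per cell cannot be told apart.

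No member of the pathway passed the test in any of 7 comparisons, which covered IIAEK and knockout in each arm, their averages, and the difference of the IIAEK effects between genotypes. Levels here are log2 intensities relative to the 75th percentile of the array, and a fold change is a difference of such levels tested with limma and adjusted by Benjamini-Hochberg over all features. The threshold was an adjusted p of 0.05. For IIAEK in wild type, in knockout, on average and for the difference, 0 of 28 members and 0 of 26107 features (0%) were called. For knockout against wild type, 0 of 28 members were called, against 0.00766% of features under vehicle, 0.00766% under IIAEK and 0.0192% on average. At an unadjusted p under 0.05 the members numbered 1 for IIAEK in wild type, 0 in knockout and 1 for the difference. The corresponding counts were 2 for knockout under vehicle, 1 under IIAEK and 1 on average, and 0 for the average effect of IIAEK. In the same order, the share of all features at that level was 3.14%, 1.91%, 1.52%, 3.85%, 1.31%, 3.03% and 2.94%. In simulated data on the same features, 84 of 100 changes of 2 log2 units and 39 of 100 changes of 1 log2 unit were recovered for IIAEK in wild type, with 7 false calls. That simulation changed 200 features and drew noise independently for each feature. The noise had each feature's own spread within groups, which includes differences of slide and tissue make-up between replicates. That such differences are shared between features, and unevenly divided over groups, was not in it. Recovery and false calls on the real arrays may therefore be lower or higher.

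The intervals show how large a change these arrays would allow. For the average effect of IIAEK, the 95% interval of 27 of 28 members lay within a 2-fold change in either direction, and that of 17 lay within 1.5-fold. The exception was Mvd, whose interval ran from -1.10 to 0.36. For the average effect of the knockout, all 28 intervals lay within 2-fold and 19 within 1.5-fold. Within 1 genotype the intervals were wider, with 21 of 28 within 2-fold for IIAEK in wild type and 25 in knockout. The median log2 fold change of the members was -0.04 for IIAEK in wild type and -0.04 in knockout, beside 0.03 and 0.00 for all features. For the knockout it was -0.04 under vehicle and -0.05 under IIAEK, beside 0.03 and -0.01 for all features. The median SD within groups was 0.284 for members and 0.302 for all features.

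**Figure D1:**
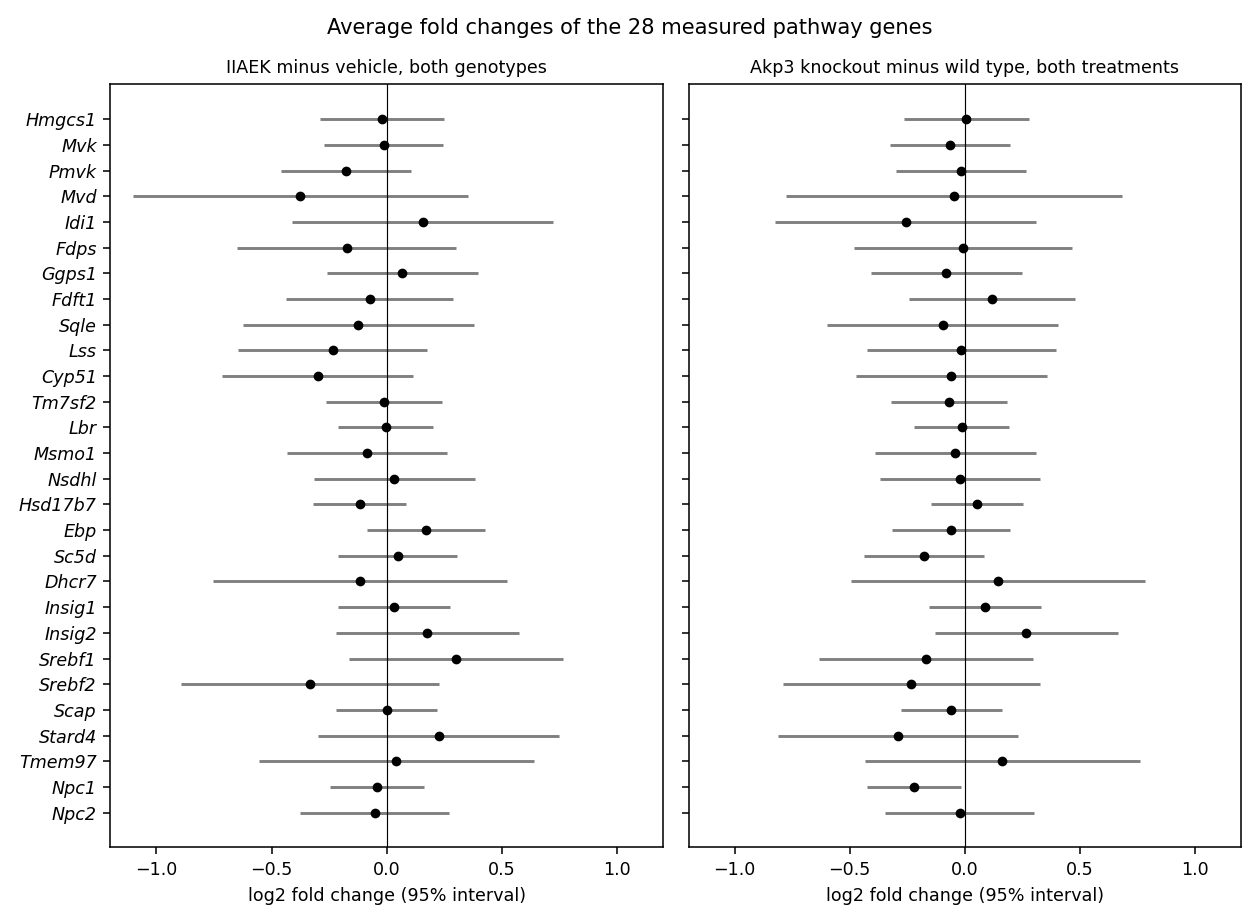
Log2 fold changes of the 28 measured genes with 95% intervals from limma, averaged over genotypes for IIAEK minus vehicle (left) and over treatments for Akp3 knockout minus wild type (right), from 12 arrays. No gene was called, Mvd has the widest IIAEK interval (-1.10 to 0.36), and Npc1 is the gene whose knockout interval leaves out 0 (-0.42 to -0.02).

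None of the 7 measured mevalonate genes was called, and their average IIAEK effects ran from -0.37 to 0.16. Hmgcs1, which makes the HMG-CoA that enters the pathway, stood at 3.61, 3.59 and 3.37 in wild type without the peptide and 3.30, 3.62 and 3.80 with it. The knockout arrays read 3.84, 3.26 and 3.70 with vehicle and 3.55, 3.48 and 3.50 with IIAEK. The 4 groups overlapped, and the average IIAEK effect was -0.02 (95% interval -0.29 to 0.25). Idi1, the isomerase that makes dimethylallyl pyrophosphate, was 2.88, 2.94 and 2.86 on the wild-type vehicle arrays and 3.07, 3.74 and 2.61 on the wild-type IIAEK arrays. In knockout Idi1 was 2.24 on vehicle array 2 and 2.94 and 3.01 on the other vehicle arrays, and 3.44, 2.94 and 2.004 under IIAEK. The wild-type vehicle arrays thus lay close together (SD 0.0406, n = 3) while the other groups spread over 0.427 to 0.729 (SD, n = 3 each).

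Pmvk, the kinase that makes mevalonate pyrophosphate, stood at 2.88, 3.01 and 3.11 in wild type without the peptide and 2.59, 2.43 and 3.07 with it. Its change in wild type was -0.30 ± 0.18 (SE, limma adjusted p = 0.999), and the array at 3.07 lies among the vehicle arrays. With vehicle the knockout arrays stood at 2.90, 2.78 and 2.89, and with IIAEK at 2.73, 2.60 and 3.098. Mvd, the decarboxylase that follows, spanned -2.68 to -0.73 over the 12 arrays, the largest range of the 28 members (1.95). Fdps, which joins isoprene units into farnesyl pyrophosphate, spanned 1.59 to 2.73. Mvk, mevalonate kinase, spanned 1.08 to 1.66, and Ggps1, which makes geranylgeranyl pyrophosphate, spanned 1.26 to 2.13.

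Among the enzymes from squalene to cholesterol, Sqle, the squalene epoxidase, was 1.09, 1.22 and 1.12 on the wild-type vehicle arrays and 0.37, 0.71 and 1.56 on the wild-type IIAEK arrays. Knockout levels were 1.27, 0.44 and 1.01 with vehicle and 0.72, 0.58 and 1.47 with the peptide. The third IIAEK arrays of the 2 genotypes were thus the highest of the 12 for this enzyme, while the other 4 IIAEK arrays lay below all 3 wild-type vehicle arrays. The average IIAEK effect on Sqle was -0.12 (95% interval -0.63 to 0.38). Cyp51, the lanosterol demethylase, stood at 0.98, 0.83 and 0.99 in wild type without the peptide and 0.11, 0.72 and 1.13 with it. The knockout arrays read 1.05, 0.50 and 1.13 with vehicle and 0.71, 0.19 and 0.82 with IIAEK. Cyp51 had the smallest p of the members for the average IIAEK effect, at -0.30 ± 0.19 (SE, limma adjusted p = 1).

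Sc5d, the lathosterol oxidase, had the smallest p among the later enzymes in the comparison of genotypes under IIAEK. It was 3.38, 3.32 and 3.14 on the wild-type vehicle arrays and 3.49, 3.74 and 3.50 on the wild-type IIAEK arrays, without overlap. With vehicle the knockout arrays stood at 3.43, 3.14 and 3.48, and with IIAEK at 3.18, 3.42 and 2.85, with overlap. Under IIAEK, knockout differed from wild type by -0.43 ± 0.17 (SE), with an unadjusted p of 0.0266 and a limma adjusted p of 1. The difference of the IIAEK effects was -0.50 ± 0.24 (SE, limma adjusted p = 1). With stomach and pancreas scores as covariates the knockout difference of Sc5d under IIAEK was -0.44 (unadjusted p = 0.0172 from limma). Without knockout IIAEK array 3 it was -0.27 (unadjusted p = 0.103 from limma). That array also had the lowest enterocyte mean (6.82) and the highest smooth muscle mean (4.46) of the 12, and their part in the value was not tested. The difference was -0.31 within slide 1, with 2 arrays of each genotype, and -0.65 between the single arrays of slide 2.

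Ebp, the sterol isomerase that also binds emopamil, stood at 5.19, 5.29 and 5.03 in wild type without the peptide and 5.39, 5.47 and 5.39 with it. Knockout levels were 5.46, 4.79 and 5.32 with vehicle and 5.29, 5.25 and 5.30 with the peptide. Ebp therefore did not overlap between vehicle and IIAEK in wild type, nor between genotypes under IIAEK, but a dimmer probe of the gene differed by only 0.08 in wild type. For knockout under IIAEK that probe gave 0.08, against -0.14 on the brightest probe. Tm7sf2, a sterol C14 reductase, was 1.69, 1.40 and 1.62 on the wild-type vehicle arrays and 1.47, 1.65 and 1.90 on the wild-type IIAEK arrays. The knockout arrays read 1.80, 1.44 and 1.61 with vehicle and 1.32, 1.46 and 1.70 with IIAEK. Lbr, which has the same reductase activity and anchors chromatin at the nuclear envelope, stood at 3.94, 3.75 and 3.80 in wild type without the peptide and 3.89, 3.75 and 3.51 with it. With vehicle the knockout arrays stood at 3.80, 3.58 and 3.74, and with IIAEK at 3.90, 3.74 and 3.79, so the groups overlapped for both reductases.

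Hsd17b7, a sterol 3-keto reductase, was 1.33, 1.21 and 1.41 on the wild-type vehicle arrays and 1.18, 1.28 and 1.17 on the wild-type IIAEK arrays. Knockout levels were 1.58, 1.24 and 1.32 with vehicle and 1.19, 1.38 and 1.19 with the peptide. Its average IIAEK effect was -0.12 (95% interval -0.32 to 0.08). The remaining enzymes are given by their ranges over the 12 arrays. Fdft1, the squalene synthase, spanned 0.91 to 1.81, and Lss, which closes squalene epoxide into lanosterol, spanned -1.45 to -0.37. Msmo1 and Nsdhl, which remove methyl groups at C4, spanned 2.60 to 3.45 and -1.497 to -0.63. Dhcr7, the 7-dehydrocholesterol reductase, spanned -1.55 to -0.04. Lss had probes that disagreed, since its average IIAEK effect was -0.23 on the brightest probe and 0.12 and -0.48 on the others.

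Of the SREBP machinery, Srebf2, the gene of SREBP-2, stood at -1.77, -1.88 and -1.53 in wild type without the peptide and -2.37, -2.59 and -1.49 with it. The knockout arrays read -2.10, -2.20 and -1.85 with vehicle and -2.80, -2.61 and -1.45 with IIAEK. Array 3 was again the high one in both IIAEK groups, and the average IIAEK effect was -0.33 (95% interval -0.89 to 0.23). Srebf1, which also makes the SREBP-1c that acts on fatty acid genes, was 3.72, 3.54 and 4.004 on the wild-type vehicle arrays and 4.81, 3.52 and 3.89 on the wild-type IIAEK arrays. With vehicle the knockout arrays stood at 3.64, 3.35 and 3.81, and with IIAEK at 3.59, 3.81 and 4.26. The value of 4.81 was the highest of the 12 and stood alone in its group.

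Insig1 is an SREBP target that retains Scap. Wild-type levels were -1.03, -1.26 and -1.16 with vehicle and -1.16, -0.97 and -1.03 with the peptide. Knockout levels were -1.14, -0.91 and -0.93 with vehicle and -0.90, -1.30 and -0.90 with the peptide. Its range of 0.394 was the smallest of the 28 members. Scap, the SREBP escort, spanned 2.32 to 2.71.

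Insig2, the other Scap retention gene, had the smallest p of the members for knockout against wild type under vehicle, for IIAEK in wild type and for the difference of the IIAEK effects. It stood at 2.14, 2.12 and 1.77 in wild type without the peptide and 2.42, 2.97 and 2.45 with it. The knockout arrays read 2.61, 2.84 and 2.67 with vehicle and 2.997, 2.49 and 1.87 with IIAEK. The 3 wild-type vehicle arrays lay below every IIAEK array of wild type and every vehicle array of knockout, while knockout under IIAEK overlapped the other 3 groups. Knockout differed from wild type under vehicle by 0.69 ± 0.26 (SE, unadjusted p = 0.0203, limma adjusted p = 0.993). IIAEK differed from vehicle in wild type by 0.60 ± 0.26 (SE, unadjusted p = 0.038, limma adjusted p = 0.999). In knockout the change was -0.25 ± 0.26 (SE), and the difference of the IIAEK effects was -0.85 ± 0.36 (SE, unadjusted p = 0.038, limma adjusted p = 1).

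Insig2 had 3 probes, and they gave like values. Knockout against wild type under vehicle was 0.69, 0.64 and 0.61, and the difference of the IIAEK effects was -0.85, -0.76 and -0.78. The wild-type vehicle arrays lay below the knockout vehicle arrays on all 3 probes and below the wild-type IIAEK arrays on the 2 brighter ones. On the dimmest probe wild-type IIAEK array 3 (0.23) lay below vehicle array 1 (0.29). All 3 wild-type vehicle arrays carry the high level of the stomach list, and 2 of 3 arrays do not in wild type under IIAEK and in knockout under vehicle. With stomach and pancreas scores as covariates, the wild-type IIAEK change of Insig2 was 0.41, the knockout difference under vehicle 0.47 and the difference of the IIAEK effects -0.67 (unadjusted p = 0.135, 0.0924 and 0.0671 from limma). Without knockout IIAEK array 3 the IIAEK change of Insig2 in knockout was 0.04, so its sign turned, and the difference of the IIAEK effects was -0.56 (unadjusted p = 0.0753 from limma). Within slide 1 the knockout change was 0.14 and the difference of the effects -0.43. On slide 2 the difference was -1.56, a value that rests on 1 array in each group but knockout vehicle, which has 2. The B and plasma cell list averaged 2.76 and 2.24 on wild-type vehicle arrays 1 and 2 and at most 0.99 elsewhere, and the hepatocyte list 0.03 on wild-type vehicle array 3 and at most -1.61 elsewhere. The part of those lists in the Insig2 values was not tested.

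**Figure D2:**
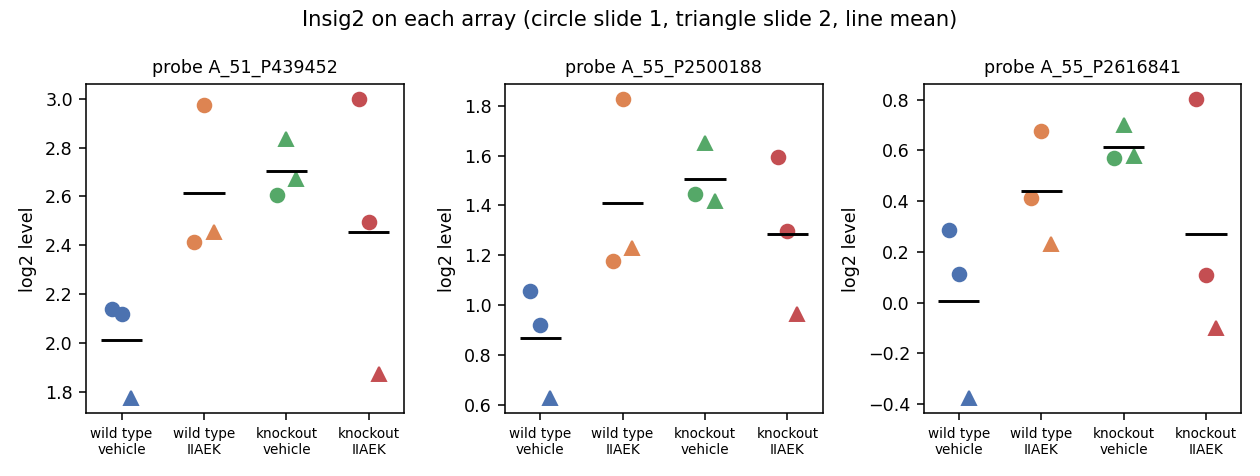
Log2 level of each of the 3 Insig2 probes on the 12 arrays by group, with circles for slide 1, triangles for slide 2 and a line at the group mean. On the brightest probe the 3 wild-type vehicle arrays (1.77 to 2.14) lie below the wild-type IIAEK arrays (2.42 to 2.97) and the knockout vehicle arrays (2.61 to 2.84), while knockout under IIAEK spans 1.87 to 2.997.

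Groups without overlap were few among the members. For IIAEK in wild type, Ebp, Sc5d and Insig2 were higher on all 3 arrays, 3 of 28 members against 5.58% of features, and no member was lower, against 3.69%. For knockout under vehicle, Insig2 alone was higher (8.5% of features) and no member was lower (5.87%). For knockout under IIAEK, Ebp and Sc5d were lower (2.19%) and none was higher (1.65%), although the dimmer Ebp probe had the opposite sign. For IIAEK in knockout there was no such member in either direction (1.98% of features higher and 2.7% lower). Of the 10 enterocyte genes, 9 were higher and 1 lower for IIAEK in wild type (median 0.26). For knockout under IIAEK 1 was higher and 9 lower (median -0.19). For the difference of the IIAEK effects all 10 lay below 0 (median -0.25). None of the 10 was called, and their part in the values of Ebp, Sc5d and Insig2 was not tested.

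None of the 4 sterol transport genes was called. Npc1, the late endosomal cholesterol exporter, was 1.17, 1.11 and 0.98 on the wild-type vehicle arrays and 0.997, 0.83 and 1.08 on the wild-type IIAEK arrays. With vehicle the knockout arrays stood at 0.98, 0.66 and 0.72, and with IIAEK at 0.82, 0.85 and 0.80. Averaged over treatments, knockout differed from wild type by -0.22 ± 0.09 (SE, unadjusted p = 0.0349, limma adjusted p = 0.999), and the genotypes overlapped. Under vehicle alone the difference was -0.30 ± 0.13 (SE, unadjusted p = 0.0428, limma adjusted p = 0.993). With stomach and pancreas scores as covariates these Npc1 differences were -0.16 and -0.18 (unadjusted p = 0.149 and 0.251 from limma). Within slide 1 they were -0.12 and -0.15 (unadjusted p = 0.322 and 0.394 from limma). All 9 T cell markers had a higher mean in knockout on average (median 0.29, 0 called), and their part in the genotype differences was not tested. Tmem97, which regulates Npc1 protein, stood at 1.83, 3.21 and 2.97 in wild type without the peptide and 2.50, 2.95 and 3.50 with it. Knockout levels were 2.48, 3.56 and 3.27 with vehicle and 2.89, 2.63 and 3.11 with the peptide. The low value of 1.83 is on the array with the low pancreas list. The Tmem97 difference of knockout under vehicle was 0.43 over all arrays, 0.01 without that array and 0.10 with stomach and pancreas scores as covariates. For IIAEK in wild type, Tmem97 gave 0.31, -0.11 and -0.03 in the same order. A dimmer Tmem97 probe gave 0.16 for knockout under vehicle and -0.09 for IIAEK in wild type over all arrays. Stard4, which moves cholesterol between membranes, spanned 1.53 to 2.99, and Npc2, which hands cholesterol to Npc1, spanned 2.23 to 2.93.

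The average effect of IIAEK had opposite signs on the 2 slides for most members. Within slide 1, where 3 vehicle and 4 IIAEK arrays lie, 9 of 28 members were lower under IIAEK at an unadjusted p under 0.05, against 6.5% of features. These were Pmvk, Mvd, Fdps, Fdft1, Sqle, Lss, Cyp51, Srebf2 and Npc2. Only Stard4 was higher at that level, 1 of 28 against 7.93%. Within slide 2, with 3 vehicle and 2 IIAEK arrays, Mvd, Fdps, Sqle, Nsdhl and Npc2 were higher, 5 of 28 against 5.33% of features, and no member was lower, against 5.51%. No member was called after adjustment, with a smallest limma adjusted p of 0.0791 on slide 1, where 0.958% of features were called, and 0.397 on slide 2, where 0.222% were.

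For Sqle the IIAEK effect was -0.62 ± 0.13 (SE) within slide 1 and 0.59 ± 0.20 (SE) within slide 2, with 1 residual degree of freedom on the latter before limma's moderation. For Mvd it was -0.78 ± 0.14 within slide 1 and 0.53 ± 0.21 within slide 2. Fdps gave -0.51 ± 0.13 and 0.42 ± 0.15. Srebf2 gave -0.63 ± 0.16 and 0.31 ± 0.22. Idi1 ran the other way, at 0.37 ± 0.20 and -0.43 ± 0.24, as did Stard4 at 0.35 ± 0.12 and -0.26 ± 0.22. In all, 16 members were lower on slide 1 and higher on slide 2, and 5 were higher on slide 1 and lower on slide 2. The remaining 7 had the same sign on both. Such signs were not counted over all features, so the reversal is not shown to be particular to the pathway. The median of the 28 members was -0.14 within slide 1 and 0.14 within slide 2, beside 0.04 and -0.02 for all features. The difference between the slides was not tested.

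**Figure D3:**
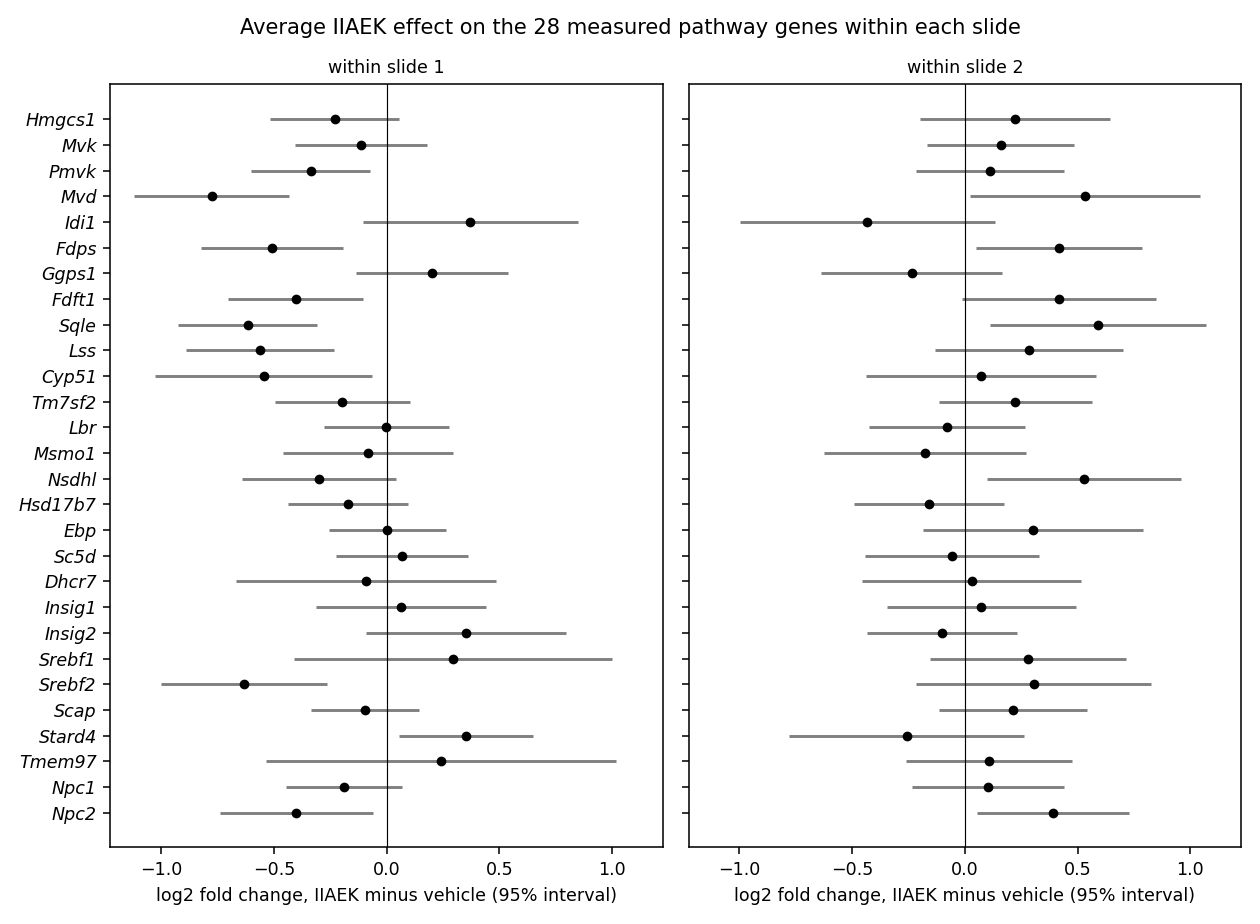
Log2 fold change of IIAEK minus vehicle, averaged over genotypes, for the 28 measured genes with 95% intervals, fitted within slide 1 (7 arrays, left) and within slide 2 (5 arrays, right). Sqle lies at -0.62 on slide 1 and 0.59 on slide 2, and Idi1 at 0.37 and -0.43.

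The level of the stomach list was also unevenly divided over treatment within each slide. On slide 1 all 3 vehicle arrays have the high level and all 4 IIAEK arrays the low one, so peptide and stomach genes cannot be told apart there. On slide 2 both IIAEK arrays have the high level, and 1 of 3 vehicle arrays does, that of wild type. In wild type on slide 2 both arrays thus have the high level. Between them the median log2 change of the members under IIAEK was 0.15, beside 0.02 for all features. The part of the stomach level in the difference between slides was not tested. Over the 12 arrays, Sqle was 1.09, 1.24 and 1.56 (lowest, median and highest) on the 6 arrays with the high level and 0.37, 0.65 and 1.01 on the 6 with the low level. Lss was -0.78, -0.71 and -0.37 on the former and -1.45, -1.19 and -0.90 on the latter. Sqle and Lss were the 2 of 28 members without overlap in this split, against 1.6% of features higher and 1.02% lower. Neither this split nor the relation with Sqle below was computed on the other Lss probes, whose average IIAEK effects disagreed. Mvd and Srebf2 had medians higher by 0.83 and 0.83 on the arrays with the high level, with overlap, and Insig2 had a median lower by 0.63. Other tissue lists also varied, since knockout IIAEK array 3 had the highest smooth muscle mean (4.46, others 2.62 to 3.76) and the lowest enterocyte mean (6.82). Their part in the pathway levels was not tested.

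Several enzymes went up and down together from array to array. The relation with Insig1, set out as the marker of SREBP activity, was 0 of 27 other members at an adjusted permutation p under 0.05 (r from -0.54 to 0.37, smallest adjusted p = 0.995), and Insig1 itself covered a range of 0.394. Sqle was then taken as the reference after its values had been seen. Against Sqle, 13 of 27 members had a positive r at an adjusted permutation p under 0.05 over 12 arrays (two-sided, 100000 resamples, adjusted over the 27). They were Hmgcs1, Mvk, Pmvk, Mvd, Fdps, Fdft1, Lss, Cyp51, Tm7sf2, Nsdhl, Srebf2, Scap and Npc2, with r from 0.66 to 0.92. By Spearman's rho 9 of them passed. An r of at least 0.7 was reached by 10 of 27 members, against 2.55% of the other 26106 features, with a median r of 0.43 for members and -0.07 for all. Genes that share a slide, a tissue make-up and an array scaling are not independent here.

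Fdft1 was the closest to Sqle. It stood at 1.32, 1.499 and 1.31 in wild type without the peptide and 0.91, 1.18 and 1.66 with it. The knockout arrays read 1.67, 1.10 and 1.56 with vehicle and 1.31, 1.14 and 1.81 with IIAEK, so array 3 was the high one in both IIAEK groups. Its r with Sqle was 0.92 (permutation p = 3e-05, adjusted p = 0.00081) and its rho 0.91 (permutation p = 9e-05, adjusted p = 0.00229). Without the 2 arrays farthest from the median of Sqle, its r was 0.87. Fdps had r = 0.90 (permutation p = 0.0001, adjusted p = 0.00135) and rho = 0.90 (permutation p = 0.00017, adjusted p = 0.00229), and r = 0.94 without those 2 arrays. Fdft1 and Fdps make squalene and its precursor, the steps just before Sqle.

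The relation with Sqle was also computed within slides and within tissue level. All 13 members had a positive r on both slides (0.45 to 0.97 on the 7 arrays of slide 1, 0.68 to 0.99 on the 5 of slide 2), 6 of them reached 0.7 on both, and all 13 passed with the group means taken away. The last of these permuted the 12 centred values freely although 4 means had been taken away, so its p-values can be too small. It also left differences of slide and stomach level in place. Within the 6 arrays with the high and the 6 with the low stomach level, 11 of the 13 had a positive r in both, and 2, Fdps and Fdft1, reached 0.7 in both. For Fdft1 these were 0.86 and 0.96, and for Fdps 0.91 and 0.71. For Lss they were 0.50 and 0.23, for Srebf2 0.44 and 0.30, for Nsdhl 0.85 and -0.02, and for Npc2 0.44 and -0.14. Without the 2 arrays farthest from the median of Sqle, 11 of the 13 passed, and Hmgcs1 (r = 0.36) and Tm7sf2 (r = 0.67) did not.

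The other 14 members did not pass, with r from -0.53 to 0.43. Msmo1 had r = 0.06 with Sqle, Hsd17b7 0.12, Ebp 0.28, Dhcr7 0.41 and Srebf1 -0.03. Idi1 (-0.36), Ggps1 (-0.40) and Stard4 (-0.46) were negative, and without the 2 farthest arrays they reached -0.75, -0.74 and -0.80 with adjusted permutation p-values of 0.0278, 0.0296 and 0.0177. Idi1 and Ggps1 were lowest on knockout IIAEK array 3, and Stard4 on knockout vehicle array 2. On knockout IIAEK array 3, Idi1 was 2.004, Ggps1 1.26 and Stard4 1.76, while Sqle was 1.47. Insig2 had r = -0.53 (adjusted permutation p = 0.151).

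**Figure D4:**
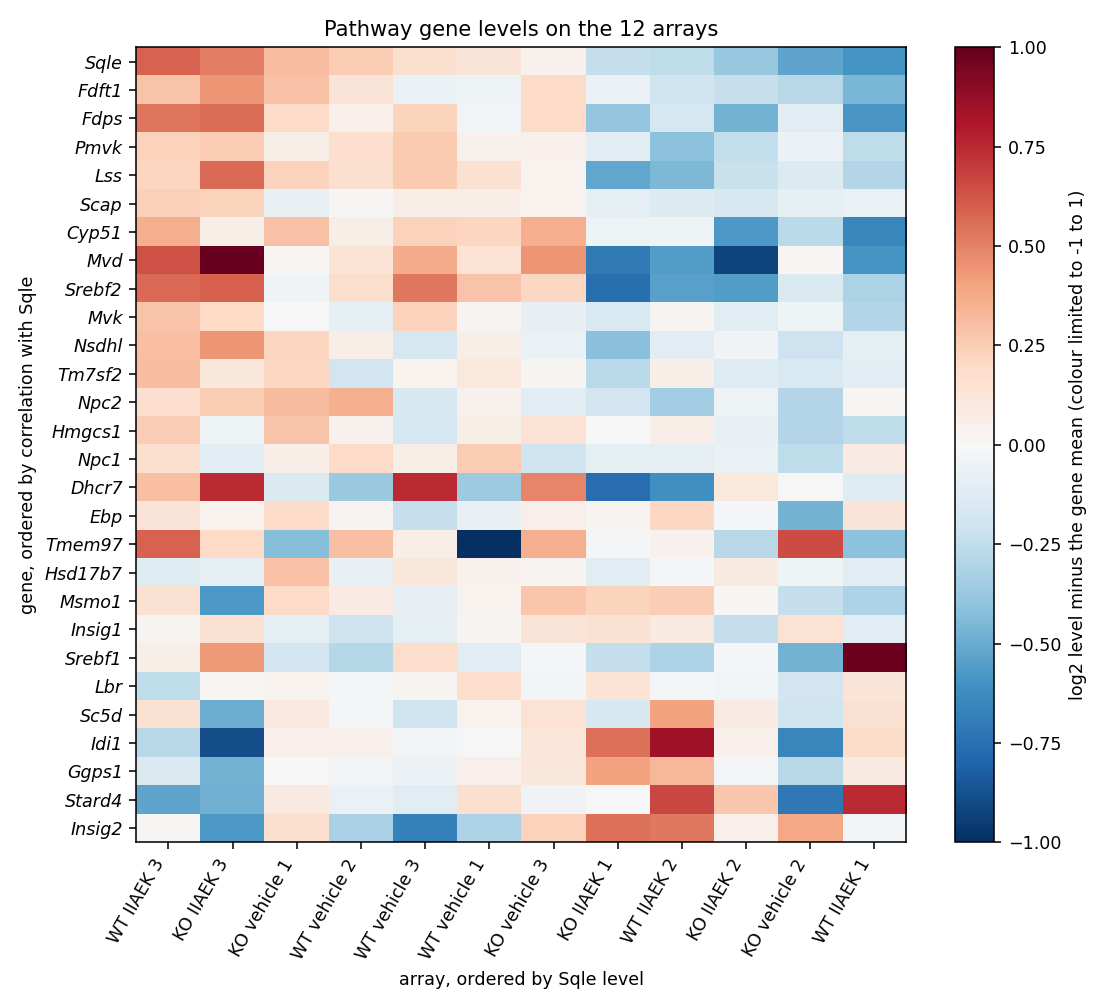
Log2 level minus the gene's mean for the 28 measured genes (rows, ordered by correlation with Sqle) on the 12 arrays (columns, ordered by Sqle level), with colour limited to -1 to 1. Fdft1, Fdps, Pmvk, Lss, Cyp51, Mvd and Srebf2 are high at the left and low at the right with Sqle, and Idi1, Ggps1, Stard4 and Insig2 are low on knockout IIAEK array 3.

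**Figure D5:**
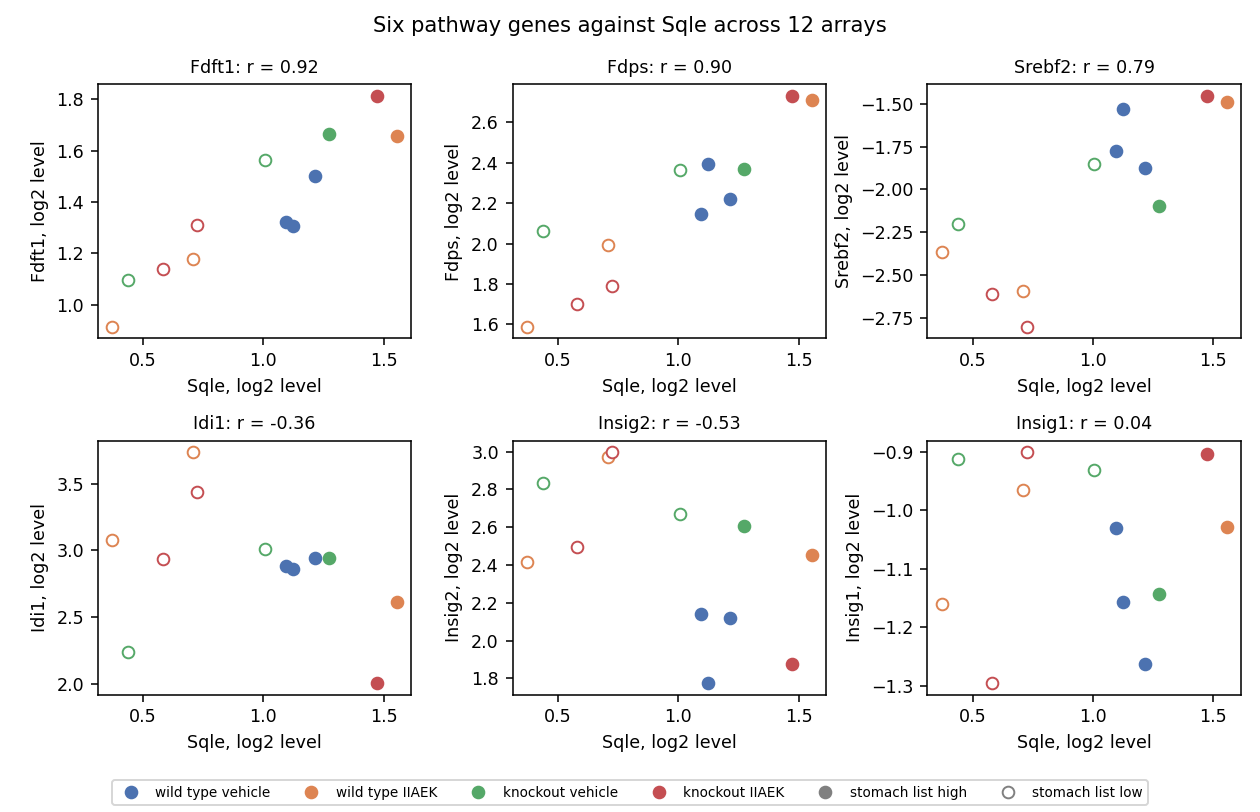
Log2 level of 6 members against Sqle on the 12 arrays, coloured by group, with filled points for the 6 arrays with a high level of the stomach list and open points for the 6 with a low level. All filled points lie at a Sqle of at least 1.09, and r over all arrays is 0.92 for Fdft1, 0.90 for Fdps, 0.79 for Srebf2, -0.36 for Idi1, -0.53 for Insig2 and 0.04 for Insig1.

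Genes around the pathway were described from 5 lists, and 0 of their 57 measured genes was called in any of the 7 comparisons. Of 10 genes of LXR action and sterol export, Abcg8 and Abcg5, the 2 subunits of the sterol efflux pump, were lower in knockout than in wild type under IIAEK by 0.66 and 0.53 in log2 level (unadjusted p = 0.0142 and 0.032, limma adjusted p = 1 for both). Abcg8 was 5.17, 4.53 and 4.58 in wild type under IIAEK and 3.91, 4.03 and 4.34 in knockout under IIAEK, without overlap, as were 2.19% of features in that direction. In this comparison 7 of the 10 genes of the list were lower and 3 higher, with Cyp27a1 at 0.36. Of the 10 enterocyte genes 9 were lower there, and their part in the Abcg5 and Abcg8 values was not tested. Ch25h, which makes 25-hydroxycholesterol, differed by -0.71 for IIAEK in wild type (unadjusted p = 0.0179, limma adjusted p = 0.999). Of 11 genes of sterol esterification and intracellular transport, Gramd1b, an endoplasmic reticulum sterol carrier, differed by 0.57 for knockout under vehicle, and Soat2, which esterifies cholesterol in enterocytes, by 0.57 for IIAEK in wild type. Their limma adjusted p-values were 0.993 and 0.999. For IIAEK in wild type 9 of the 10 enterocyte genes were higher, and their part in the Soat2 value was not tested.

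Among 9 measured genes of SREBP processing and sterol sensing, Erlin2 and Erlin1 differed by 0.33 and 0.47 for IIAEK in wild type (limma adjusted p = 0.999 for both). The part of the enterocyte genes, mostly higher in that comparison, was not tested. Erlin1 and Erlin2 bind SREBP complexes in the endoplasmic reticulum. Syvn1, a ubiquitin ligase of the same membrane, had a log2 difference of -0.38 for the average knockout effect (unadjusted p = 0.0208, limma adjusted p = 0.999). Mbtps2, a protease that cuts SREBP, had 0.28 for knockout under vehicle (unadjusted p = 0.0656, limma adjusted p = 0.993). Of 14 genes of fatty acid synthesis, Me1, which makes NADPH, differed by -0.67 for knockout under IIAEK, and Scd1, the stearoyl-CoA desaturase, by -0.44 for the average knockout effect. Their limma adjusted p-values were 1 and 0.999. Of 13 genes of the non-sterol isoprenoid branch, none had an unadjusted p under 0.05, and the smallest was that of Pdss2, a coenzyme Q synthesis gene, at 0.0715 for IIAEK in wild type.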

How the data were processed

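Per the file headers, the authors' scanner files come from Feature Extraction 10.7.3.1 and hold a processed intensity per spot, background-subtracted and not scaled between arrays. A value table that the authors deposited holds log2 values, which matched log2 processed intensity minus the 75th percentile of each array, centred per probe, and served as an alternative. Control and marked spots were left out, spots of a probe averaged, and the 75th percentile of each array subtracted. Probes well above background on all 3 arrays of 1 group were kept, and accessions were named through a RefSeq table of GRCm38.p6. A mean per group was fitted with limma 3.58.1 in R 4.3.3 (eBayes with intensity trend) and p-values were adjusted over 26107 features. Relations used permutation tests with 100000 resamples. The members, lists and named genes (6 pathway genes and the 3 smallest p in each contrast, with up to 4 from each neighbouring list) were chosen with earlier results of these data known, and a few further genes are not reported here. The model was tested on simulated data. The labels do not say that replicate numbers pair samples, and 11 of 18 same-numbered pairs correlated over 0.1, so no pairing was used. Replicate 1 lies on slide 1 and replicate 3 on slide 2 in every group, so the number follows the slide in part.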

Additional observations from a re-analysis of the deposited data

How the results depend on the processing

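No member was called under any of 23 alternatives of the 7 comparisons. The alternatives were normexp background, quantile normalization, no filter, the mean of probes, slide as a block, each slide alone, no intensity trend, stomach and pancreas scores as covariates, the deposited value table, a replicate block and leaving out each array. The smallest adjusted p was 0.0791. The median log2 fold change of the members for IIAEK in wild type moved from -0.04 to 0.15 within slide 2. In knockout it moved to -0.18 within slide 1 and to 0.21 within slide 2. The difference of the IIAEK effects moved from -0.03 to 0.12 within slide 2. The average IIAEK effect moved from -0.02 to 0.14 within slide 2, and the knockout effect under vehicle from -0.04 to 0.10 with the tissue scores. Leaving out 1 array gave medians of -0.09 to 0.06, -0.16 to 0.01, -0.11 to 0.11, -0.10 to 0.08, -0.15 to 0.07, -0.08 to 0.02 and -0.09 to 0.04, in the order IIAEK in wild type, in knockout, their difference, knockout under vehicle, under IIAEK, average IIAEK and average knockout. Each group holds replicates 1, 2 and 3 once, so a replicate block cannot change a fold change. Its medians of -0.04, -0.04, -0.03, -0.04, -0.05, -0.02 and -0.04 were thus fixed by the design. Only the p-values could move, and 4 features were called for the average knockout in place of 5. Same-numbered arrays had correlations of -0.25 to 0.70, 11 of 18 pairs were over 0.1, and the number follows the slide for replicates 1 and 3. Features called for the average IIAEK effect numbered 0 over all arrays, 250 within slide 1 and 58 within slide 2. For IIAEK in wild type they numbered 0, 257 and 0, and 17 without wild-type vehicle array 3. In knockout they numbered 0, 58 and 255. For knockout under vehicle they numbered 2, 4 and 80, and 18 without wild-type vehicle array 3. Among single members, 4397 of 4508 fold changes stayed within 1 SD between replicates, and 103 of the 111 that moved did so within a slide. Insig2 kept its sign under all 23 alternatives for IIAEK in wild type (0.41 to 0.70), knockout under vehicle (0.47 to 0.98) and the difference (-1.56 to -0.43), with adjusted p no lower than 0.129, which came from slide 2 alone, 2 knockout arrays against 1 wild-type array. The unadjusted p was under 0.05 in 19, 19 and 15 of the 23, and reached 0.151, 0.145 and 0.293. Npc1 was under 0.05 in 12 of 23 for the average knockout effect and in 10 of 23 under vehicle. Sc5d was under 0.05 in 20 of 23 for knockout under IIAEK and reached 0.103. The cause of these changes was not tested. Several alternatives cannot change a fold change, namely the replicate block, no intensity trend and leaving out an array of a group outside the comparison. Nor can the slide block where the compared groups divide alike over the slides, as for IIAEK in wild type. Counts over the 23 are therefore not counts of independent checks. Groups of 3 arrays and an intensity read-out limit what can be called. All 28 measured members were well above background on all 12 arrays, but Srebf2 and Mvd were dim, falling to -2.80 and -2.68. The deleted Akp3 lay between -4.90 and -3.80 on the knockout arrays.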
